A study of Mus musculus with 16 samples.

Results

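The 46 genes described here encode the Wnt ligands (19 genes), the frizzled receptors (10 genes) and 17 antagonists of the pathway. They were chosen by name, from the mouse gene families, out of 21631 genes that code for protein (chromosome Y left out). H3K27me3, the repressive histone mark written by the Polycomb enzyme EZH2, was mapped in CCN6KOT cells, mouse breast tumour cells of spindle metaplastic type that lack CCN6 (also called WISP3), a secreted matricellular protein; the labels call them both primary cells and a cell line. All libraries therefore share the CCN6 knockout, the culture medium with serum and the selection with puromycin. Control cells carried a control lentivirus (PPGS in the sample titles) and the others a lentivirus with dnTCF4, a dominant negative form of TCF4, the DNA-binding partner of beta-catenin (the design text calls it a dominant negative beta-catenin construct), with 4 H3K27me3 libraries in each group. Whether the 4 libraries of a group stem from separate cultures is not stated in the labels, so a p-value here reflects library-to-library spread that may be technical. The sources used here give no age for the animals. A peak list cannot show whether CCN6 was absent or dnTCF4 present.

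Wnt proteins are lipid-modified secreted signals that bind frizzled receptors together with the co-receptors LRP5 and LRP6, which stabilises beta-catenin and lets it act with TCF/LEF factors on target genes. Antagonists work at several levels. Secreted decoys (the Sfrp family, Frzb, Wif1) bind Wnt proteins, Dkk proteins and sclerostin block the co-receptors, Notum removes the lipid from Wnt, Rnf43 and Znrf3 remove frizzled from the cell surface, and Nkd1 and Nkd2 act on Dishevelled inside the cell. In the mammary gland Wnt signals drive placode formation, branching and stem cell maintenance, and many of the genes that encode them are Polycomb targets in cells that do not use them.

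The 8 peak lists held 191 to 54070 peaks (control 1 to 4: 426, 738, 54070 and 22745; dnTCF4 1 to 4: 21492, 191, 4885 and 1838). They give no read counts, so depth is unknown, and where no peak was called the mark may still be present. Control 1, control 2 and dnTCF4 2 were the shortest lists, and the others are called longer here. The step from 738 to 1838 peaks is smaller than that from 1838 to 4885, so length alone does not set this cut. Values without single libraries are given with the limits of processing. Among genes that mark cell types, Epcam (an epithelial adhesion protein) had a peak in 8 libraries and Cdh1 in 3. Of the epithelial keratins, Krt5 and Krt14 had peaks in 2 libraries each and Krt8 and Krt18 in none. All 7 mesenchymal and both endothelial genes of the list had none in any library, and the leukocyte gene Ptprc had peaks in 3. A peak list gives no expression, so these values do not check the cell type.

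A gene is called marked here if its body held a peak after being extended by 2 kb to each side (build mm10). The promoters below, the 250 bases before and 50 after the start site in RefSeq (build GRCm38.p6), are printed because no peak covered a start site at the 31 members with a known start. Capitals mark CG dinucleotides. Wnt8b had the highest covered share of the 46 genes, and peaks of 2 libraries overlap part of its window. Frzb and Wnt9b had peaks on both sides of the window and none over it and were added after their values were seen, and Wnt2 is the first ligand of the list with no peak in any library.
Wnt8b, chr19:44493222-44493521, plus strand: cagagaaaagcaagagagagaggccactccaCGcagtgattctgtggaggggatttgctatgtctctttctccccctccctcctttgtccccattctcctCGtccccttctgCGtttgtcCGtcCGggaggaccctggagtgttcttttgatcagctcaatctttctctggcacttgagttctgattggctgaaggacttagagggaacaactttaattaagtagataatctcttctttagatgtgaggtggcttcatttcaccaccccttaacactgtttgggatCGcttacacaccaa
Frzb, chr2:80447347-80447646, minus strand: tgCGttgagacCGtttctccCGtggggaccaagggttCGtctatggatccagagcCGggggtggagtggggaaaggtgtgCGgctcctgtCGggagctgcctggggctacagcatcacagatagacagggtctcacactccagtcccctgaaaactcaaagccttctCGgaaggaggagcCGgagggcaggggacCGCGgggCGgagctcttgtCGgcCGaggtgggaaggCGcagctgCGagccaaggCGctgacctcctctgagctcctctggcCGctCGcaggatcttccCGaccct
Wnt9b, chr11:103749772-103750071, minus strand: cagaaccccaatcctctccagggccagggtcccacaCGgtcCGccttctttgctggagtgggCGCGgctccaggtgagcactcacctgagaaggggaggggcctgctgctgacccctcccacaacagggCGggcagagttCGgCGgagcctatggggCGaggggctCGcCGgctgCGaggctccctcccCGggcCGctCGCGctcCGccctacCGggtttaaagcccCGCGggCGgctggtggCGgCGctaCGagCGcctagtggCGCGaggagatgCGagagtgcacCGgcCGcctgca
Wnt2, chr6:18030396-18030695, minus strand: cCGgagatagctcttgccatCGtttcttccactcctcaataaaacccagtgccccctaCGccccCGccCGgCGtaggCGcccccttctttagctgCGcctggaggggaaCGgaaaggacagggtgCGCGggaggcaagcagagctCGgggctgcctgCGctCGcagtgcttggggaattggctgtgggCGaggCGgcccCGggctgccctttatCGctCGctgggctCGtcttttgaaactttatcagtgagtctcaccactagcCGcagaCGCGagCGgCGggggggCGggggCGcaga
The windows hold 6 CG dinucleotides in Wnt8b, 20 in Frzb, 29 in Wnt9b and 27 in Wnt2. The gene with the broadest marking is thus the one of these 4 with the fewest.

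Ligand and antagonist genes carried H3K27me3 peaks more often than other protein-coding genes in each of the 5 longer lists, and frizzled genes did so in 4 of these 5, with control 3 the exception (20.0% on both sides). The frizzled counts are small. In dnTCF4 3 and dnTCF4 4 only 1 of 10 was marked, Fzd6 on chromosome 15, where 18.4% and 11.3% of other genes were marked. In at least 1 library 10 of 19 ligands, 3 of 10 receptors and 9 of 17 antagonists were marked, 22 of 46 genes in all (47.8%), against 21.3% of the 21585 other protein-coding genes. Control 3, the longest list, marked 20 members (43.5%) against 20.0% of other genes. Control 4 marked 15 (32.6%) against 12.4%, and dnTCF4 1 marked 17 (37.0%) against 13.6%. The shorter dnTCF4 3 and dnTCF4 4 lists marked 8 and 4 members, or 17.4% and 8.70%, where 5.10% and 2.40% of other genes were marked. Among the shortest lists, control 1 marked 1 member, while control 2 and dnTCF4 2 marked none, with 0.672%, 1.06% and 0.255% of other genes marked. These shares were not tested, since the genes were chosen by name with earlier results of these data known.

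**Figure D1:**
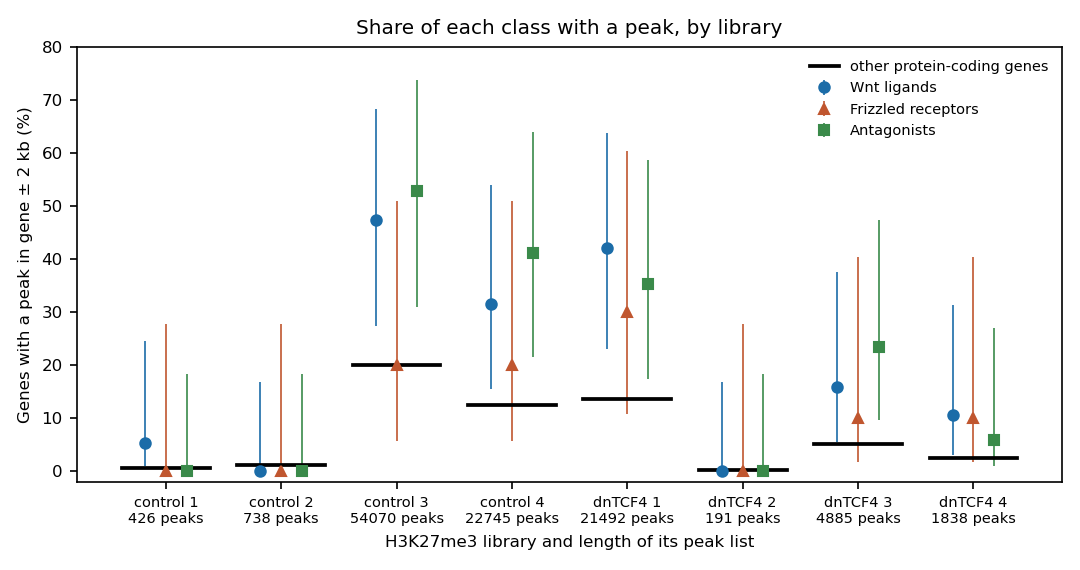
Share of Wnt ligands (circles), frizzled receptors (triangles) and antagonists (squares) with a peak in the gene extended by 2 kb, in percent, for each H3K27me3 library, with 95% Wilson intervals as bars. Black lines give other protein-coding genes. In control 3 the shares are 47.4%, 20.0% and 52.9%, and the line lies at 20.0%.

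By class, control 3 marked 9 ligands (47.4%, 95% Wilson interval 27.3% to 68.3%), 2 receptors (20.0%, 5.67% to 51.0%) and 9 antagonists (52.9%, 31.0% to 73.8%). The same 3 counts were 6, 2 and 7 in control 4, 8, 3 and 6 in dnTCF4 1, and 3, 1 and 4 in dnTCF4 3. The intervals cover counting error only and overlap between the classes in every library. Frizzled genes are short, several with a single coding exon. Their median extended length was 8.59 kb, against 26.9 kb for ligands, 33.1 kb for antagonists and 21.3 kb for other genes. Gene length moves with the outcome: of other genes, 13.3% of those with a window under 10 kb and 38.8% of those over 100 kb had a peak in any library. Among windows under 10 kb, 1 of 7 receptors, 1 of 2 ligands and 3 of 5 antagonists had a peak. The part of length in the difference between classes was not tested. In control 3, peaks covered 7.75% of the ligand windows, 3.93% of the receptor windows and 4.65% of the antagonist windows, against 1.87% of those of other genes. In control 4 the values were 2.31%, 0.495% and 1.18% against 0.605%, with receptors below other genes. In dnTCF4 1 they were 3.29%, 2.42% and 1.91% against 0.651%. Ligand windows had the highest value in these 3 libraries, and receptors the lowest in control 3 and control 4 but not in dnTCF4 1. Wnt8b alone held 17.1, 8.41 and 11.4 kb of the 92.6, 24.9 and 40.2 kb covered in all member windows of control 3, control 4 and dnTCF4 1. In control 4 and dnTCF4 1 the lead of the ligands rests on this gene.

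**Figure D2:**
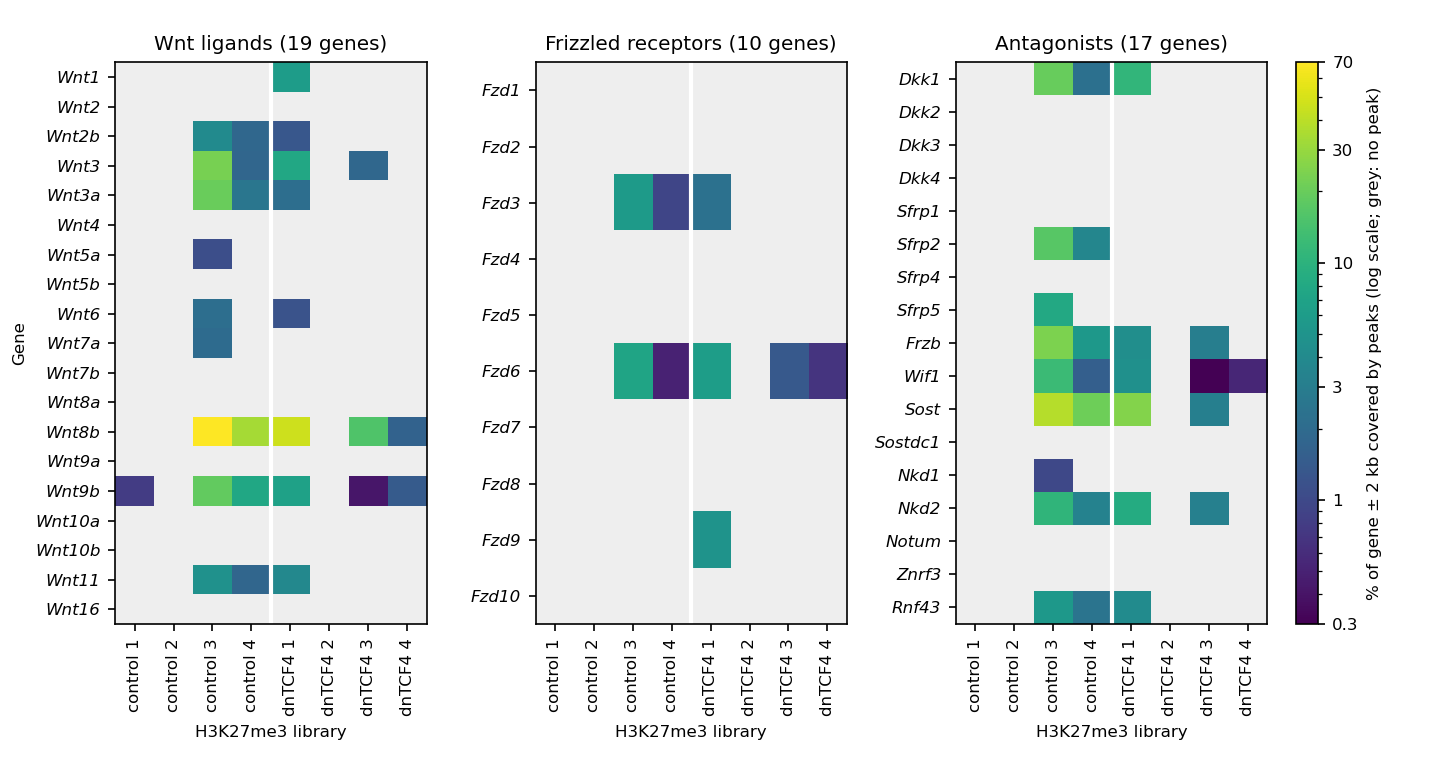
Percent of each gene extended by 2 kb that was covered by peaks, on a log colour scale, for the 46 genes (rows) in the 8 libraries (columns). Grey means no peak. Wnt8b reaches 69.1% in control 3, and 24 genes are grey throughout.

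Of the 19 ligands, Wnt8b, Wnt9b and Wnt3 were marked in 4 or more libraries. Wnt8b, a ligand of the developing forebrain (chromosome 19, 44493472 to 44514273), was covered to 0%, 0%, 69.1% and 33.9% in control 1 to 4, and to 46.1%, 0%, 15.7% and 1.68% in dnTCF4 1 to 4. The values of the groups overlap, and dnTCF4 1 lay above control 4 with a slightly shorter list. In control 3 its marking consisted of 5 peaks, with 2 of 6919 and 7224 bases that are the only member peaks of 5 kb or more among 211. The authors' fold enrichment of Wnt8b peaks had a median of 3.61 in control 3, 3.76 in dnTCF4 1 and 4.59 in dnTCF4 4, where the medians over peaks at no member were 3.01, 3.50 and 4.48. In control 4 and dnTCF4 3 it was 3.53 and 4.08, against 3.39 and 4.05. In control 3 its 2 broadest peaks ranked above 95.8% and 95.7% of the list by −log10 q. Ranks in other libraries were lower or mixed. The broadest peak of control 4 ranked above 74.0%, and the peaks of dnTCF4 1 above 25.1% to 97.3%. Those of dnTCF4 3 ranked above 14.5% to 60.4%, and those of dnTCF4 4 above 32.3% and 55.2%. Other libraries broke the marking into narrower pieces at the same place: 9 peaks in control 4, 11 in dnTCF4 1, 7 in dnTCF4 3 and 2 in dnTCF4 4.

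Wnt9b and Wnt3 lie side by side on chromosome 11 and their extended windows overlap, so 4 peaks are counted at both. Wnt9b, needed for kidney tubule formation (103727362 to 103775272; the body reaches upstream to position -25451 from the RefSeq start used here), had a peak in 6 libraries. In dnTCF4 3 its only peak was one shared with Wnt3, 853 bases from the Wnt3 start, and without it Wnt9b was marked in 5 libraries, as Wnt8b, Fzd6 and Wif1 were. It was covered to 0.788%, 0%, 18.8% and 7.73% in control 1 to 4 and to 6.82%, 0%, 0.420% and 1.45% in dnTCF4 1 to 4. A region from 3241 to 5170 bases past its start site (103744651 to 103746580) held peaks in 3 control and 2 dnTCF4 libraries, control 1 included. Wnt3, needed for gastrulation (103774175 to 103818021), was covered to 0%, 0%, 23.1% and 1.83% in control and to 7.92%, 0%, 1.87% and 0% in dnTCF4 libraries. Control 3 stood far above the other control libraries at Wnt3.

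The ligands with peaks in 3 libraries, all of them control 3, control 4 and dnTCF4 1, were Wnt2b, Wnt3a and Wnt11. Wnt3a, a classical activator of beta-catenin in the paraxial mesoderm, was covered to 20.0% and 2.56% in control 3 and control 4 and to 2.14% in dnTCF4 1, with 0% in the other 5 libraries. Wnt2b and Wnt11 reached at most 4.08% and 4.76%. Wnt6 had peaks in control 3 and dnTCF4 1, and Wnt5a and Wnt7a in control 3 alone. Wnt1, the ligand first found as a target of mouse mammary tumour virus, had a single peak of 486 bases, in dnTCF4 1, covering 6.09% of its window. The 9 ligands with no peak in any library were Wnt2, Wnt4, Wnt5b, Wnt7b, Wnt8a, Wnt9a, Wnt10a, Wnt10b and Wnt16. Among these, Wnt4 acts in mammary side branching and Wnt10b marks the mammary placode. Of the 4 pairs of neighbouring ligands, both members were marked at Wnt3 and Wnt9b and 1 at the other pairs: Wnt9a beside Wnt3a, Wnt10a beside Wnt6 and Wnt10b beside Wnt1 had no peak where the partner had at least 1.

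Frizzled receptors were the least often marked class in control 3, control 4 and dnTCF4 1. Fzd6, a receptor of planar cell polarity (chromosome 15, 39006149 to 39038192), had peaks in 5 libraries and was covered to 0%, 0%, 7.18% and 0.508% in control 1 to 4 and to 6.26%, 0%, 1.37% and 0.680% in dnTCF4 1 to 4. The groups overlap, and control 3 and dnTCF4 1 lie close together. In dnTCF4 3 and dnTCF4 4 the only Fzd6 peak lay outside the gene, in the added 2 kb. Fzd6 lies on chromosome 15, whose other genes were marked more often than the rest, at 18.4% in dnTCF4 3 and 11.3% in dnTCF4 4, and the part of the chromosome in this result was not tested. Fzd3, which acts in axon guidance, was covered to 5.87% in control 3, 0.931% in control 4 and 2.30% in dnTCF4 1. Fzd9 had 1 peak of 302 bases in dnTCF4 1. The other 7 receptors, Fzd1, Fzd2, Fzd4, Fzd5, Fzd7, Fzd8 and Fzd10, had no peak in any library.

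Antagonists of several kinds were marked. Sost, which encodes sclerostin, the osteocyte inhibitor of LRP5 and LRP6 (chromosome 11, 101962458 to 101967015), was covered to 0%, 0%, 38.5% and 21.1% in control 1 to 4 and to 25.7%, 0%, 3.17% and 0% in dnTCF4 1 to 4. The region shared by the most libraries lay mostly past the far end of the gene, and part of it beyond the extended window. It ran from 4347 to 8452 bases past the start site, in control 3, control 4, dnTCF4 1 and dnTCF4 3, and the gene is 4.56 kb long. In dnTCF4 3 the only Sost peak lay outside the gene. Frzb, a secreted decoy prominent in cartilage (chromosome 2, 80411970 to 80447396), was covered to 23.9% and 5.48% in control 3 and control 4 and to 4.45% and 3.08% in dnTCF4 1 and dnTCF4 3, with 0% in the other 4 libraries. Nkd2, which binds Dishevelled (chromosome 13, 73818534 to 73847631), was covered to 10.7% and 3.37%, and to 8.53% and 3.23%, in the same libraries. At Sost, Frzb and Nkd2 the groups overlap, with 2 libraries of each at 0%.

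Wif1, a secreted Wnt-binding protein (chromosome 10, 121034004 to 121100642), was covered to 0%, 0%, 12.3% and 1.57% in control 1 to 4 and to 4.67%, 0%, 0.304% and 0.537% in dnTCF4 1 to 4. Its most recurrent site was narrow. A region of 425 bases, 23850 to 24274 bases past the start site, held a peak in control 3, control 4, dnTCF4 1, dnTCF4 3 and dnTCF4 4. In control 3 the authors' −log10 q of that peak was 6.03, the highest of any member peak, and its fold enrichment 5.05. That peak ranked above 99.8% of the control 3 list, whereas the peak of control 4 at the same place ranked above 3.05% of its list.

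The co-receptor antagonist Dkk1 was covered to 19.7%, 2.23% and 10.9% in control 3, control 4 and dnTCF4 1, and to 0% in the other 5 libraries. Rnf43, the ubiquitin ligase that clears frizzled from the membrane, was covered to 5.54%, 2.44% and 4.14% in the same 3 libraries. The decoy Sfrp2 had peaks in control 3 (17.1%) and control 4 (3.66%) and in no dnTCF4 library. Sfrp5 and Nkd1 had peaks in control 3 alone, at 8.11% and 0.979%. Dkk2, Dkk3, Dkk4, Sfrp1, Sfrp4, Sostdc1, Notum and Znrf3 had no peak in any library. Related genes thus differed: Nkd2 was marked in 4 libraries and Nkd1 in 1, Rnf43 in 3 and its homologue Znrf3 in 0, and Dkk1 in 3 with the other Dkk genes in 0.

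**Figure D3:**
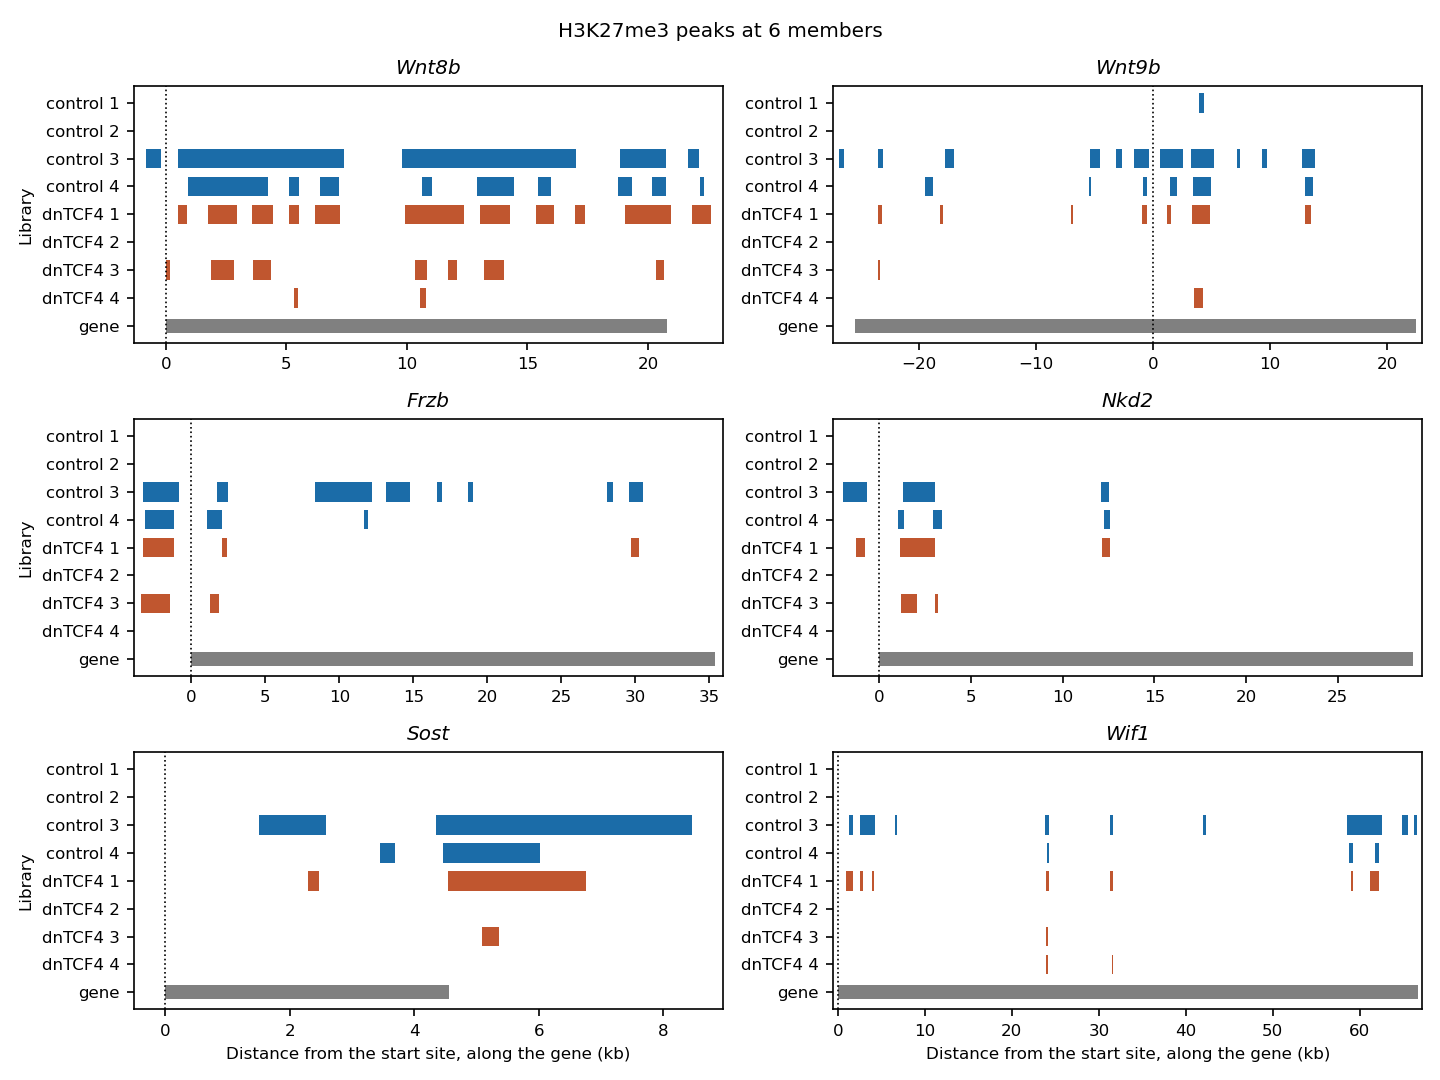
Peaks at 6 genes in the 8 libraries (blue, control; orange, dnTCF4), by distance in kb from the start site (dotted line), counted along the direction of the gene; the grey bar is the annotated gene. Many peaks recur at the same places across libraries and none crosses the dotted line; at Sost the recurrent region lies from 4347 to 8452 bases past the start.

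Many, but not all, peaks at the members recurred at the same places. Merging the 211 peaks of all libraries gave 99 regions, of which 53 were found in 1 library, 46 in 2 or more and 11 in 4 or more. Control 3, the longest list, held 90 of the 99 regions. Within the member windows, 85.3% of the bases covered in dnTCF4 1 were also covered in control 3, which is 37.1% of the bases covered in control 3. Control 4 shared 86.5% of its bases with control 3 (23.4% of those of control 3) and 60.5% with dnTCF4 1 (37.7% of those of dnTCF4 1). For dnTCF4 3, 88.7% of its bases lay in control 3 peaks (7.78% of those of control 3). All 15 members marked in control 4 were among the 20 of control 3, and all 8 of dnTCF4 3 were among the 17 of dnTCF4 1. Of the 17 members of dnTCF4 1, 15 were marked in control 3, Wnt1 and Fzd9 being the exceptions. Overlap with control 3 is not particular to the members. Control 3 marked 20 of the 22 members with a peak in any library, and 4324 of the 4604 such other genes. Shares of bases in common are not given here for other genes.

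No peak lay over a known start site of these genes, and few start sites of other genes were covered either. Most peaks at members with a known start lay more than 5 kb from it. A start site and strand were available for 31 members, with 35 start sites. None of these was covered in any library. Of 21010 start sites of other genes, 223 (1.06%) were covered in control 3, the library with the most, so 0 of 35 lies near the share of other genes. In control 3, peaks covered 7 of 35 positions (20.0%) 1 kb upstream and 7 of 35 positions 2 kb downstream of the member starts. Other genes showed a dip of the same kind, from 3.68% at 1 kb upstream to 1.06% at the start and 3.47% at 2 kb downstream. A peak lay within 2 kb of 13 of 35 member starts in any library, against 11.5% of those of other genes. A peak touched the 300-base promoter window of 1 of 35 (Wnt8b, in control 3 and dnTCF4 3), against 1.95% of others. Of 190 peaks at members with a known start, 22 lay within 1 kb of it (11.6%) and 117 lay more than 5 kb away.

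**Figure D4:**
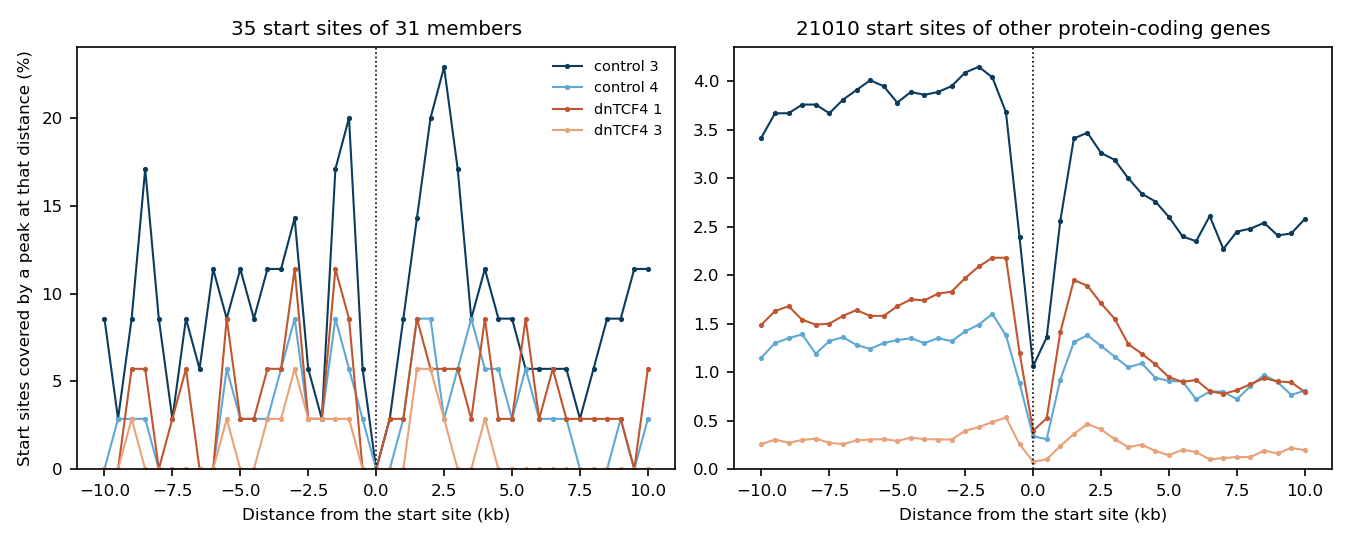
Percent of start sites with a peak at each distance from the start, in kb, for 35 start sites of 31 members (left) and 21010 of other protein-coding genes (right; the vertical scales differ), in the 4 longest lists. Both panels fall at the start; the members are at 0% there and at 20.0% in control 3 at 1 kb upstream.

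In control 3, 9 start sites of members (25.7%) had peaks within 5 kb on both sides and none over the 300 bases, against 5.33% of other start sites. These were Dkk1, Frzb, Nkd2, Sfrp2, Sfrp5, Wif1, Wnt2b, Wnt3 and Wnt9b. At Frzb the pattern was seen in control 3, control 4, dnTCF4 1 and dnTCF4 3: the flanking regions lay at positions -3380 to -816 and 1038 to 2443 from the start, around the window printed above. The 9 windows held a median of 24.0 CG dinucleotides, the same as all member windows, and those of other genes with this arrangement held 12.0, against 13.0 for all windows of other genes. The arrangement thus came with no difference in median CG number among members and a small one among other genes. The 350 promoter windows of other genes that a peak did overlap in control 3 held 3.00. Wnt8b, the member whose window was touched, has 6. The part of base composition in the low coverage of start sites was not tested.

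Over all members with a promoter entry the median was 24.0 CG dinucleotides per window, against 13.0 for other genes. It was 28.0 for 18 ligand windows, 35.0 for 6 frizzled windows and 11.0 for 11 antagonist windows. Members with and without a peak within 2 kb of the start had medians of 24 and 25. The TCF/LEF core motif CTTTGAT, searched on both strands, was found in 2 of 35 member windows, those of Wnt11 and of 1 of 3 Wnt5b starts, and in 3.25% of windows of other genes.

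Between control and dnTCF4 libraries no member passed the test, but with these lists it could have called no gene. The covered percent of each gene was compared by a two-sided exact permutation test over 70 assignments of 8 libraries, with Benjamini-Hochberg adjustment across the 4626 genes with a peak in any library. It called 0 genes (0%), 0 of the 22 members among them, and 1 gene had an unadjusted p under 0.05 (Nhsl2, named after its value was seen). Fisher's exact test of peak presence called 0 genes (0%), with 0 at an unadjusted p under 0.05. With 70 assignments the smallest p is 0.0286, and 2644 genes would have had to reach it before any could pass. A gene reaches it only if every library of 1 group lies above every library of the other. That takes a peak in control 1, which marked 145 other genes and 1 member, or in dnTCF4 2, which marked 55 and 0. The permutation test, and Fisher's test for the same reason, could thus call no gene here. They cannot show whether single genes differ between the groups. The exact permutation p of the members ran from 0.400 (Wnt9b) to 1.00, and every adjusted p was 1.00.

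The differences were small beside the spread of libraries. Mean coverage of Wnt8b was 25.8 ± 33.0% for the control group and 15.9 ± 21.3% with dnTCF4 (SD, 4 libraries per group), a difference of -9.89 percentage points (exact permutation p = 0.714, adjusted p = 1.00). Sost was covered to 14.9 ± 18.6% and 7.21 ± 12.4% (SD, 4 libraries per group), which differ by -7.69 (exact permutation p = 0.714, adjusted p = 1.00). For Sfrp2, marked in 2 control and 0 dnTCF4 libraries, the means were 5.19 ± 8.13% and 0% (SD, 4 libraries per group), which differ by -5.19 (exact permutation p = 0.429, adjusted p = 1.00). Fzd6 had 1.92 ± 3.51% and 2.08 ± 2.85% (SD, 4 libraries per group), which differ by 0.157 (exact permutation p = 0.914, adjusted p = 1.00). The dnTCF4 mean was lower for 19 of the 22 members tested (86.4%), and for 88.8% of the other genes tested. The median difference was -1.14 percentage points over these members and -1.03 over other genes, so the members moved as the rest of the lists did. Without control 3 the differences of Wnt8b, Wnt3, Dkk1, Frzb, Wif1, Sost and Nkd2 turned positive, at 4.56 for Wnt8b and 0.179 for Sost, and those of Sfrp2, Wnt3a and Wnt9b shrank to -1.22, -0.318 and -0.664.

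The share of members with a peak averaged 19.6 ± 21.8% over control and 15.8 ± 15.8% over dnTCF4 libraries (SD, 4 per group), a difference of -3.80 percentage points, and that of other genes 8.55 ± 9.40% and 5.35 ± 5.87%, a difference of -3.20. Without control 3 the members' difference was 4.17 percentage points, without control 4 it was 0.543 and without dnTCF4 2 it was 1.45. List length moved with these counts. When control 3, control 4 and dnTCF4 1 were reduced to the 4885 peaks of dnTCF4 3 with the highest −log10 q, which was chosen after seeing the data, these 4 lists marked 6, 6, 9 and 8 members, against 6.21%, 5.43%, 6.20% and 5.10% of other genes. Wnt3, Wnt8b, Wnt9b and Wif1 were marked in all 4 of these lists, Wnt9b in dnTCF4 3 only by the peak shared with Wnt3.

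Members with peaks in 2 or more libraries of each group numbered 8 of 46 (17.4%), against 4.99% of other genes. These are the 8 genes with peaks in 4 or more libraries, Wnt3, Wnt8b, Wnt9b, Fzd6, Frzb, Wif1, Sost and Nkd2, where 5.16% of other genes reached 4. Without control 3 the first count fell to 1, as it did without control 4. Peaks in control libraries only were found at 5 members (10.9%; 7.51% of other genes): Wnt5a, Wnt7a, Sfrp2, Sfrp5 and Nkd1. Wnt1 and Fzd9 had a peak in dnTCF4 libraries only (4.35%; 1.00% of other genes), both from dnTCF4 1 and a single narrow peak.

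Of 35 other genes of the pathway, 10 had a peak in any library, where the share of other protein-coding genes was 21.3%. Differences between their roles were not tested. The R-spondins, secreted enhancers that bind Lgr receptors and hold back Rnf43 and Znrf3, and their receptors had peaks at 5 of 7 genes in any library, Rspo1, Rspo2, Rspo3, Rspo4 and Lgr5. Rspo2 was covered to 0%, 0.151%, 20.2% and 6.60% in control 1 to 4 and to 4.16%, 0%, 0.661% and 0% in dnTCF4 1 to 4. Rspo4 reached 15.6% in control 3 and 10.8% in dnTCF4 1, and Rspo1 7.18% and 1.02%. Of 6 further antagonists 3 were marked, with the axon guidance protein Draxin in 4 libraries (5.34% in dnTCF4 1). Among 8 secretion and co-receptor genes only Ror2, a receptor for Wnt5a, had a peak, in 3 libraries with up to 2.94% covered. Of 14 intracellular genes only Lef1, a TCF/LEF factor, was marked, to 12.5%, 2.68% and 0.472% in control 3, control 4 and dnTCF4 1. None of these passed the test (adjusted p = 1.00, exact permutation p from 0.343 for Rspo2 to 1.00 for Draxin among those named). Porcn, Wls, Lrp5, Lrp6, Ror1, Ryk, Ptk7, Dvl1, Dvl2, Dvl3, Axin1, Axin2, Apc, Gsk3a, Gsk3b, Csnk1a1, Ctnnb1, Tcf7, Tcf7l1 and Tcf7l2 had no peak in any library.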

How the data were processed

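H3K27me3 chromatin from 8 libraries (4 control, 4 dnTCF4) was analysed. The 8 IgG samples were not analysed here. MACS2 2.1.2, bedtools 2.28.0, SAMtools 1.2, Picard 2.20.2, Bowtie2 2.3.4.1, cutadapt and Trim Galore, with build mm10, are named per the submitters' processing notes. Their options, and whether IgG served as background, are not stated. The assay was ChIPmentation (adapters inserted by a transposase during immunoprecipitation), per the labels' protocols. The deposited lists, 1 per library, hold 9 columns without header. They give the authors' score (10 times the −log10 q, truncated, in 106378 of 106385 peaks), the authors' ratio, a fold enrichment over background, and the authors' −log10 p and −log10 q per peak, used only within a list.

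Genes came from RefSeq (GRCm38.p6; all 46 members matched). Bases covered by peaks were computed in each gene body extended by 2 kb, with Python 3.11.15, NumPy 2.4.6, SciPy 1.17.1 and pandas 2.3.3. Start sites and promoter sequences were found for 31 members. Functions were tested on simulated data. Genes named in full had peaks in 4 or more libraries or were among the 3 whose number of marked libraries differed most between the groups, in either direction. Values of pathway genes were given from 3 libraries on, and Rspo3, Lgr5 and some unmarked genes were named without values. Members and lists were chosen with earlier results of these data known. Alternatives covered the window, minimum overlap, peak threshold, list length, scale, test, replicate block and each library left out.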

Additional observations from a re-analysis of the deposited data

Results flagged for a closer look

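Some libraries stood far from the other 3 of their group in the covered percent of a named gene. In 11 of 34 groups of 4 libraries the gap from the highest library to the next, divided by the range, exceeded Dixon's 95% critical value. Chance gives about 1 in 20 for normally distributed values, a rate that does not apply to coverage with many zeros from lists of unequal length. Every such library was control 3 or dnTCF4 1, the longest list of its group. Control 3 stood apart at Wnt3 (23.1%), Wnt3a (20.0%), Fzd6 (7.18%), Dkk1 (19.7%) and Wif1 (12.3%). In the dnTCF4 group, dnTCF4 1 stood apart at Sost (25.7%), Dkk1 (10.9%), Wnt1 (6.09%), Fzd9 (4.94%), Wif1 (4.67%) and Wnt3a (2.14%). At Wnt1, Fzd9, Dkk1 and Wnt3a the other 3 dnTCF4 libraries had no peak, so the highest library exceeds the limit by construction, and Wnt1 and Fzd9 were named because of that library. The shares of ligands, receptors, antagonists and all members with a peak did not exceed that limit in either group.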

How the results depend on the processing

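No member was called under any of 19 alternatives (0 throughout), and the lowest adjusted p over all genes tested ran from 0.622 to 1.00. Fewer assignments are possible with the replicate block and with the 4 equal lists, so these settings could call no gene whatever its values. Fisher's test and the scaled values meet the same bound as the main test, set by the short lists, and could call no gene either. Under the other settings the reach for single genes is little at most. The count of 0 throughout therefore does not show that the members are alike in both groups. The samples share replicate numbers, and same-numbered libraries deviated with r = -0.774, 0.765, -0.248 and -0.502. Control 1 and control 2, both short lists, gave 0.76 and 0.765 with the short dnTCF4 2, and -0.774 and -0.776 with the longer dnTCF4 1. These values thus move with list length and cannot decide whether the numbers pair the libraries. With the numbers as a replicate block the count of members called stayed 0. A block leaves every difference unchanged by construction, including the -3.80 percentage points in the share of members. Of 179 values of named members under alternatives, 152 kept their direction, 27 reversed and 0 passed the threshold.

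Counts of ligands, receptors and antagonists with a peak in any library (10, 3 and 9) fell to 3, 0 and 1 at a −log10 q of at least 3, to 0, 0 and 1 with lists of equal length (191 peaks), to 1, 0 and 0 in the promoter window, and the first 2 to 4 and 1 with 4 lists of equal length (4885 peaks). The 8 members with peaks in 2 or more libraries of each group became 5 with at least 500 bases covered, 4 at gene ends and in the 4 equal lists, and 0 at the stricter q, with 191 peaks or in the promoter window; leaving out 1 library gave 1 to 8, with 1 without control 3 or control 4 and 4 without dnTCF4 1 or dnTCF4 3. Without the 2 kb extension the counts by class were 7, 2 and 9, and the 8 members became 6. These counts fall where fewer peaks, bases or libraries enter.

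Differences (dnTCF4 minus control, percentage points) reversed as follows. At the stricter q: Wnt3 0.204, Wnt8b 0.405, Wif1 0.0495. Without extension: Fzd6 -0.298, Nkd2 0.0507. With 5 kb: Fzd9 -0.186. With 500 bases: Fzd6 -0.229. At gene ends: Wnt3 0.316. In the 4 equal lists: Wnt3 1.35, Dkk1 3.87, Frzb 1.69, Wif1 0.0856, Sost 1.58, Nkd2 1.89. Without control 3: Wnt3 1.84, Wnt8b 4.56, Dkk1 1.97, Frzb 0.0558, Wif1 0.856, Sost 0.179, Nkd2 1.82. Fzd6 was -0.484 without control 1 or control 2, -0.315 without control 4 and -1.24 without dnTCF4 1; Nkd2 was 0.401 without dnTCF4 2 or dnTCF4 4. Leaving out 1 library gave ranges of -5.87 to 1.84 for Wnt3, -20.0 to 4.56 for Wnt8b, -1.24 to 1.91 for Fzd6, -5.49 to 1.97 for Dkk1, -7.89 to 0.0558 for Frzb, -3.24 to 0.856 for Wif1, -13.8 to 0.179 for Sost and -2.44 to 1.82 for Nkd2, and, without a change of direction, -6.92 to -1.22 for Sfrp2, -7.00 to -0.318 for Wnt3a and -6.94 to -0.664 for Wnt9b, each smallest without control 3. The cause was not tested. Depth is unknown and limits which peaks could be called.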
